A study of Mus musculus with 20 samples.

Results

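Among 235938 T-cell receptor α (TCRα) clones of CD8+ T cells from 17 mice, 1627 (0.69%) carried a variable (V) gene of the δ locus, a TRDV gene, in place of a TRAV gene. These clones were taken as all rows of the TCRα clone tables whose first listed V gene was a TRDV gene, and each was compared with the 234311 clones whose first listed V gene was a TRAV gene. A clone was 1 listed entry, with its nucleotide sequence of the third complementarity-determining region (CDR3), the stretch at which V and J genes are joined. In some mice a few entries had the same V gene, J gene and CDR3 as another entry. TRDV1 accounted for 794 clones (48.8%), TRDV2-2 for 723 (44.4%), TRDV2-1 for 82 (5.04%) and TRDV5 for 28 (1.72%). No clone carried TRDV3 or TRDV4. With a limit of 3 counts among the 3454783 molecules counted, this allows each a share of up to 8.68e-05% of molecules. That limit treats every molecule as a separate draw. Molecules of the same clone are not, so a limit based on clones would be wider.

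TCRα libraries had been made from sorted TCRβ-high CD4-CD8+ T cells of male mice aged 9 to 12 weeks on the C57BL/6 background, with a stated purity above 98%. The source given for the cells was lymph nodes, and the extraction protocol named lymph nodes and spleens. WT mice (n = 4) were compared with β5i-KO mice (n = 5), which lack the immunoproteasome subunit β5i, with β5t-KO mice (n = 4), which lack β5t, the catalytic subunit that cortical thymic epithelial cells normally use, and with BIT mice (n = 4), in which the β5t coding sequence replaces that of β5i on both alleles, so that cells which normally make β5i make β5t and no β5i. Several BIT lines had been engineered, and the study drew its BIT data from 1 of them except where it states otherwise. Per mouse, 720 to 31876 clones, 14772 to 602397 molecules and 1983032 to 8480570 reads were listed, with between 7.57 and 134 reads per molecule. TRDV clones numbered 6 to 252 per mouse, and mice with few of them gave imprecise shares. Mouse β5i-KO 4, with the fewest molecules, listed no clone under 9 reads, whereas clones with 1 read were listed in the other mice. The libraries BIT 3 (528 clones, of which 1 was TRDV) and β5t-KO 5 (25 clones, none TRDV) were left out, and the TCRα library of WT 5 was not analysed here. Clones with the invariant joins of natural killer T cells (TRAV11 with TRAJ18) made up at most 0.0595% of a library and those of mucosal-associated invariant T cells (TRAV1 with TRAJ33) at most 0.139%. No clone carried a TRDJ gene, all 1627 TRDV clones listed the α constant gene TRAC, and the libraries were primed from TRAC.

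The α and δ genes of the mouse share 1 locus. Most TRDV genes lie between the TRAV genes and the δ segments, so that a V gene joined to a TRAJ gene deletes the δ segments in between, and a TRDV gene can itself be joined to TRAJ and spliced to TRAC. Such a join gives an α chain with a δ variable domain. In the thymus the first Vα-Jα joins use V and J genes that face each other across the δ segments, and further rounds on the same allele use V genes further upstream and J genes further downstream.

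In the GENCODE annotation of GRCm39, the genes occupy chr14:54119069-54119674 (Trdv1), chr14:54183530-54184117 (Trdv2-1) and chr14:54198401-54199059 (Trdv2-2), all on the plus strand. Trdv3, annotated as a pseudogene, lies at chr14:54238416-54238724 and Trdv4 at chr14:54312362-54312972. Trdv5 lies beyond the δ constant gene at chr14:54386119-54386751 on the minus strand, in an orientation that requires inversion for a join. The J genes run from Traj61 at chr14:54392462-54392533 to Traj1 at chr14:54456271-54456299, in descending order of their numbers, and Trac follows at chr14:54457978-54461663. TRAJ numbers were therefore used as a J position, with a high number close to the TRDV genes. Trdv1 starts 273 kb and Trdv2-2 194 kb before the first J gene. The germline ends of the 4 genes found, from the conserved cysteine codon onwards, are shown because the bases in front of the recombination signal set how much of each gene a CDR3 can contain. The capitals mark the heptamer and the nonamer of the recombination signal, and the germline part of the CDR3 in front of it is 13 bases long in TRDV1, 15 in TRDV5 and 18 in TRDV2-1 and TRDV2-2.

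TRDV1, chr14:54119662-54119713 (plus): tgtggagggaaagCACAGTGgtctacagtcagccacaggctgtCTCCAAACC
TRDV2-1, chr14:54184100-54184156 (plus): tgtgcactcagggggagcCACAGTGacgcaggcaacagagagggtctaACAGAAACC
TRDV2-2, chr14:54199042-54199098 (plus): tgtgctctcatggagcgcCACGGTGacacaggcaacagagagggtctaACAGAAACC
TRDV5, chr14:54386080-54386133 (minus): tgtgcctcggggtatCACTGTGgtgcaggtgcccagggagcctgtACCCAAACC

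The CDR3 found in most mice is shown for each gene, once in frame and once not, with ties settled by the number of molecules. A CDR3 was counted as in frame when its translation held neither a frame shift nor a stop codon. Capitals mark bases inserted between the V and the J gene, and a sequence with no capitals had none. Palindromic bases, described below, were counted with the V gene and are in lower case. The TRDV1 with TRAJ56 and the TRDV2-2 with TRAJ50 sequences hold 1 each.

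TRDV1 with TRAJ58, in frame: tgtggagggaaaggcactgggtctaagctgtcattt
TRDV1 with TRAJ56, not in frame: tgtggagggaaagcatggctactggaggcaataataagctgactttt
TRDV2-2 with TRAJ50, in frame: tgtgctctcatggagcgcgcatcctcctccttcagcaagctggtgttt
TRDV2-2 with TRAJ42, not in frame: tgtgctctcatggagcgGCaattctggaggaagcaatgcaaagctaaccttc
TRDV2-1 with TRAJ52, in frame: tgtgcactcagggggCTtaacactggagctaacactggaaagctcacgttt
TRDV2-1 with TRAJ48, not in frame: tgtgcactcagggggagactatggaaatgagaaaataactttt
TRDV5 with TRAJ47, in frame: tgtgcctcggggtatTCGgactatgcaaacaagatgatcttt
TRDV5 with TRAJ27, not in frame: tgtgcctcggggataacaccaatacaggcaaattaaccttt

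The TRDV2-2 and TRAJ50 sequence occurred in 5 mice (BIT 1, BIT 2, BIT 5, β5i-KO 3 and β5t-KO 1) with 63 molecules in all. The TRDV1 and TRAJ58 sequence occurred in 4 mice (BIT 2, WT 2, β5i-KO 1 and β5i-KO 3) with 81 molecules. The TRDV1 and TRDV2-2 sequences that were not in frame were each found in 2 mice, and those of TRDV2-1 and TRDV5 each in 1 mouse.

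TRDV1 and TRDV2-2 were present in all 17 mice at near equal shares. TRDV1 made up 47.0% ± 6.09 (SD, n = 17) of the TRDV clones of a mouse, between 33.3% and 55.9%. TRDV2-2 made up 46.4% ± 6.49, between 33.3% and 60%. TRDV2-1 was found in 15 mice, and averaged 5.00% ± 3.87 of TRDV clones over all 17, and TRDV5 was found in 13 mice and averaged 1.55% ± 1.07. The V call of TRDV clones was less ambiguous than that of TRAV clones, since 1625 of the 1627 listed a single V gene, against a mean of 66.4% of TRAV clones per mouse, and the other 2 listed both TRDV2-1 and TRDV2-2. All 7730 clones of TRAV17 to TRAV21, TRAV genes near TRDV in the locus, listed a single V gene too. The plot of shares by mouse sets the genes of each library on top of each other.

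**Figure D1:**
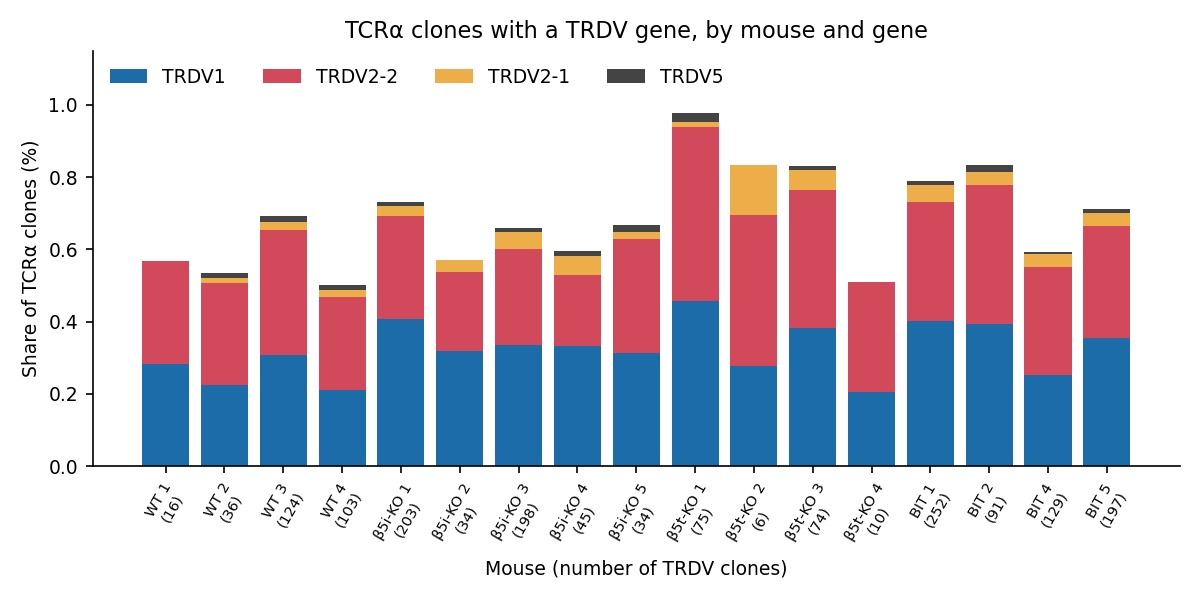
Share of TCRα clones (%) with a TRDV gene in each of the 17 mice, stacked by gene, with the number of TRDV clones in parentheses under each mouse. TRDV1 and TRDV2-2 fill most of every bar, and the whole bar ranges from 0.502% (WT 4) to 0.979% (β5t-KO 1).

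TRDV genes were joined mostly to the J genes at the near end of the TRAJ cluster. TRAJ57, TRAJ49, TRAJ56, TRAJ58 and TRAJ45, the 5 J genes most used by TRDV clones, took 748 TRDV clones (46.0%) but 9.26% of TRAV clones. TRAJ57 took 12.9% ± 6.99 (SD, n = 17 mice) of the TRDV clones of a mouse and 1.20% ± 0.207 of its TRAV clones, a share 10.7 times as large and higher in 16 of 17 mice. TRAJ58, the J gene nearest to the TRDV genes among those used, took 8.29% ± 5.20 against 0.910% ± 0.117. TRAJ49 took 10.3% ± 11.4 against 3.24% ± 0.412, TRAJ56 took 9.06% ± 5.41 against 1.66% ± 0.246 and TRAJ45 took 7.42% ± 5.21 against 2.36% ± 0.223. TRAJ37, further downstream, also took a larger share of TRDV clones, at 6.41% against 2.67%, whereas its neighbours TRAJ38 and TRAJ39 took smaller ones, at 0.547% against 1.02% and 0.812% against 2.08%. TRAJ40, TRAJ35 and TRAJ34 took about equal shares, at 2.65% against 2.79%, 0.605% against 0.541% and 2.87% against 2.91%. Further downstream, smaller TRDV shares were seen at TRAJ22 and TRAJ30. TRAJ22, the J gene most used by TRAV clones (6.07%), took 0.227% of TRDV clones, and TRAJ30 took 0.190% against 4.37%. TRDV clones with TRAJ16 or TRAJ5 were not found, although TRAV clones were joined to each of them 3124 and 2428 times.

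**Figure D2:**
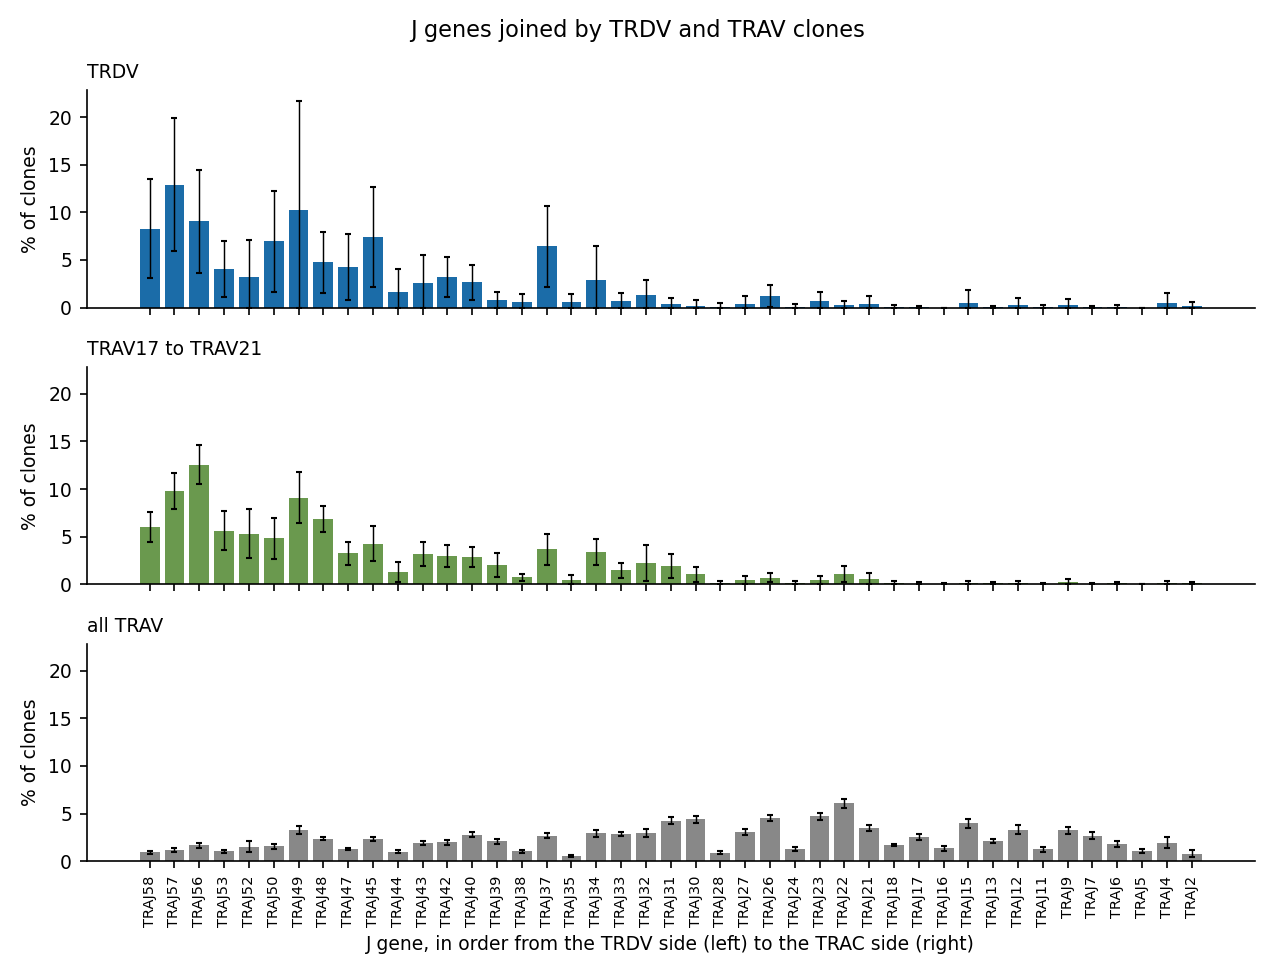
Share of clones (%) joined to each of the 43 J genes found, as the mean over 17 mice with SD (bars cut at 0), for TRDV clones (top), clones of TRAV17 to TRAV21 (middle) and all TRAV clones (bottom), with J genes in genomic order from the TRDV side on the left. TRDV and TRAV17 to TRAV21 clones are gathered at the left end from TRAJ58 to TRAJ37, and all TRAV clones are spread over the whole set.

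The mean TRAJ number of a mouse put a size on this shift. It was 47.4 ± 1.85 (SD, n = 17 mice) in in-frame TRDV clones and 28.5 ± 0.954 in in-frame TRAV clones, so that the J genes of TRDV clones lay 18.96 ± 1.80 numbers higher. The difference was positive in 17 of 17 mice, between 15.9 and 22.6 (two-sided permutation test that flips the sign of each mouse's difference, p = 2e-05 from 100000 resamples, Benjamini-Hochberg adjusted p = 5.33e-05 over 8 within-mouse comparisons). Clones that were not in frame, which encode no receptor, showed the same shift. In the 10 mice with at least 5 such TRDV clones the mean number was 45.7 ± 4.80 in TRDV and 28.1 ± 0.841 in TRAV clones, a difference of 17.7 ± 4.91 that was positive in 10 of 10 mice (permutation p = 0.00196, adjusted p = 0.00392). TRDV1 and TRDV2-2 did not differ detectably from each other in this measure, with in-frame means of 47.4 and 46.6 in the 15 mice with at least 5 clones of both (difference -0.71 ± 3.20 SD, permutation p = 0.448, adjusted p = 0.597). Their J profiles overlapped by 82.7%, taken as the sum over J genes of the smaller of the pair of shares. Over all clones, 77.0% of TRDV clones used TRAJ41 or a higher number, against 21.5% of TRAV clones, and 1.97% against 28.4% used TRAJ20 or lower. TRDV5, which joins by inversion and lies nearest to the J genes, had a mean TRAJ number of 44.1 over its 28 clones, and none of them used TRAJ20 or lower.

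The TRAV genes nearest to TRDV in the locus used J genes in a like way. Of 85 TRAV genes with at least 200 clones, TRAV21/DV12 had the J profile most like that of TRDV clones, with an overlap of 85.6%, followed by TRAV14-3 (81.5%) and TRAV19 (81.2%). The median TRAV gene overlapped by 29.2%. Trav21-dv12 (chr14:54113441-54114209) is the TRAV gene next to Trdv1, and Trav19 (chr14:54082691-54083284) and Trav14-3 (chr14:54000630-54001151) lie further upstream. Against the 7730 clones of TRAV17 to TRAV21, the J difference in frame was 0.60 ± 1.81 (SD, n = 17, higher in 12 mice, permutation p = 0.194, adjusted p = 0.259), with values per mouse between -2.89 and 3.92. Not in frame it was -1.03 ± 4.51 (n = 10, permutation p = 0.492). This set of neighbours was chosen after the data were seen, because the wider set of TRAV16 to TRAV21 was dominated by TRAV16N and TRAV16D-DV11, whose copies use J numbers of 32.8 and 24.3 on average. Against that wider set the in-frame difference was 10.2 ± 1.70 (17 of 17 mice, permutation p = 2e-05).

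The in-frame share of TRDV clones as a whole did not differ from that of TRAV clones beyond the spread between mice, while 2 TRDV genes differed from each other. Of the 1627 TRDV clones 1488 (91.5%) were in frame, against 90.2% of TRAV clones. Per mouse the TRDV share ranged from 81.3% (13 of 16 clones, WT 1) to 100% (in WT 2, β5i-KO 5 and β5t-KO 2, with 36, 34 and 6 TRDV clones), with a median of 91.4%, while the TRAV share stayed between 89.0% and 92.0%. The mean difference was 1.39 ± 4.90 percentage points (SD, n = 17), higher in 12 mice and lower in 5 (permutation p = 0.263, adjusted p = 0.422). Without WT 1 it was 2.14 points (permutation p = 0.047, adjusted p = 0.0752) and without β5t-KO 2 it was 0.913 points (adjusted p = 0.634). Of the 139 TRDV clones not in frame, 134 had a CDR3 length that was not a multiple of 3 and the other 5 held a stop codon.

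TRDV2-2 was in frame more often than TRDV1, in a comparison of single genes that was added after the data were seen. In the 15 mice with at least 5 clones of both, TRDV2-2 was in frame in 94.9% ± 3.53 of clones and TRDV1 in 89.2% ± 7.17, a difference of 5.73 ± 6.27 percentage points (SD), higher for TRDV2-2 in 12 mice, equal in 2 and lower in β5t-KO 3 (permutation p = 0.00277, adjusted p = 0.0111 over 8 comparisons between these genes). The lowest TRDV1 shares were 75.0% in WT 1 (8 clones), 80.0% in β5i-KO 4 (25 clones) and 81.4% in BIT 2 (43 clones). Against the TRAV clones of the same mice, TRDV2-2 was higher by 4.77 ± 3.79 percentage points (SD, n = 16 mice, 14 higher, permutation p = 0.00049, adjusted p = 0.00161 over 23 tests of single genes). Over all clones TRDV2-2 was in frame in 94.7%, beside 97.2% in TRAV16N, 95.5% in TRAV16D-DV11 and 93.4% in TRAV17. TRAV19 and TRAV21/DV12 were lower, at 88.8% and 89.1%, and single TRAV genes were not tested against TRDV2-2. TRDV1 differed from TRAV by -1.37 ± 7.06 percentage points (n = 15, 7 higher and 8 lower, permutation p = 0.469, adjusted p = 0.599). With the TRDV1 clones left out, the TRDV difference from TRAV became 3.80 percentage points (permutation p = 0.00181, adjusted p = 0.00314). TRDV2-1 was in frame in 75 of 82 clones (91.5%, 95% Wilson interval 83.4% to 95.8%). TRDV5 was in frame in 17 of 28 (60.7%, interval 42.4% to 76.4%), a lower share than that of the other TRDV genes, whose intervals began at 83.4% or above. TRAV18, also with 28 clones, was in frame in 18 of them (64.3%, interval 45.8% to 79.3%). TRAV20, annotated as a pseudogene, was in frame in 32.4% of 111 clones. The intervals cover counting error only, and clones of 1 mouse share a library.

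The junctions of TRDV clones kept more of the V gene than those of TRAV clones. On average 1.49 ± 0.22 bases (SD, n = 17 mice) had been removed from a TRDV gene and 2.11 ± 0.153 from a TRAV gene, a difference of -0.62 ± 0.227 that was negative in 17 of 17 mice (permutation p = 2e-05, adjusted p = 5.33e-05). The difference was -0.57 for TRDV1 (15 of 15 mice lower) and -0.74 for TRDV2-2 (16 of 16 mice lower), with adjusted p = 0.000322 and 0.000153. For TRDV2-1, with 6 mice, it was -0.19 (exact permutation p = 0.625). Against TRAV17 to TRAV21 the difference was -0.31 ± 0.295 (15 of 17 mice lower, permutation p = 0.00023, adjusted p = 0.00092). An untrimmed V end was listed for 46.7% of TRDV1 and 45.9% of TRDV2-2 clones, 31.7% of TRDV2-1 clones and 37.9% of TRAV clones. Among the neighbouring genes it was listed for 52.8% of TRAV17, 36.8% of TRAV19 and 36.5% of TRAV21/DV12 clones. These had 1.64, 1.86 and 2.56 bases removed on average over all clones, beside 1.58 in TRDV1 and 1.47 in TRDV2-2. TRDV5 stood on the other side of TRAV, with an untrimmed V end in 17.9% of its 28 clones and 2.5 bases removed on average, against 2.17 over all TRAV clones, and was not tested for want of mice with enough clones. Palindromic bases, which are copied from an untrimmed V end when its hairpin is opened off centre, were listed at the V end of 37.9% of TRDV2-2 clones, as in its in-frame sequence with TRAJ50 above, and in 19.5% of TRDV1 and 21.6% of TRAV clones. In TRAV17 they were listed for 33.1% of clones.

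Against all TRAV clones, insertion and trimming of the J gene were not detectably different. TRDV clones had 2.30 ± 0.509 inserted bases and TRAV clones 2.32 ± 0.0897 (difference -0.02 ± 0.468, permutation p = 0.898). Against TRAV16 to TRAV21, which had 1.85, the TRDV clones held 0.45 ± 0.415 more (15 of 17 mice, permutation p = 0.00074, adjusted p = 0.00148). Against TRAV17 to TRAV21, which had 2.02, the TRDV clones held 0.29 ± 0.437 more (13 of 17 mice, permutation p = 0.0179, adjusted p = 0.0478), a call that was lost when any of 13 of the 17 mice was left out (adjusted p = 0.0506 to 0.0926). From the J gene 2.86 ± 0.394 bases had been removed in TRDV and 2.90 ± 0.0811 in TRAV clones (permutation p = 0.676).

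The in-frame CDR3 was longer in TRDV clones, and longer in TRDV2-2 than in TRDV1. It measured 44.7 ± 0.534 bases in TRDV and 40.9 ± 0.316 in TRAV clones, a difference of 3.85 ± 0.567 that was positive in 17 of 17 mice (permutation p = 2e-05, adjusted p = 5.33e-05). The difference was smaller against TRAV genes near TRDV. It was 2.51 ± 0.625 against TRAV17 to TRAV21 (42.2 bases) and 1.09 ± 0.523 against TRAV16 to TRAV21 (43.6 bases). Each was positive in 17 of 17 mice (permutation p = 2e-05, adjusted p = 0.00016 and 8e-05). TRDV2-2 CDR3s were 47.1 ± 0.887 and TRDV1 CDR3s 42.1 ± 1.08 bases long in the same 15 mice, with TRDV2-2 longer in 15 of 15 by 4.98 ± 1.80 (permutation p = 7e-05, adjusted p = 0.00056). The germline V part of the CDR3 shown above is 5 bases longer in TRDV2-2 than in TRDV1. TRDV1 exceeded TRAV by 1.31 ± 1.06 bases (14 of 15 mice, adjusted p = 0.000537 by the permutation test). Its 42.1 bases lay beside the 42.2 of TRAV17 to TRAV21, a pair that was not tested. The number of molecules per in-frame clone differed from that of TRAV clones by -0.10 ± 0.433 on the log2 scale, within the spread between mice (permutation p = 0.475), and without WT 1 by -0.0028. TRDV2-2 clones alone held fewer, by -0.24 ± 0.443 (12 of 16 mice lower, permutation p = 0.00801, adjusted p = 0.0205). Much of this value came from WT 1, with 8 TRDV2-2 clones, and without that mouse it was -0.14 ± 0.189 (11 of 15 mice lower, permutation p = 0.0159, adjusted p = 0.0407).

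**Figure D3:**
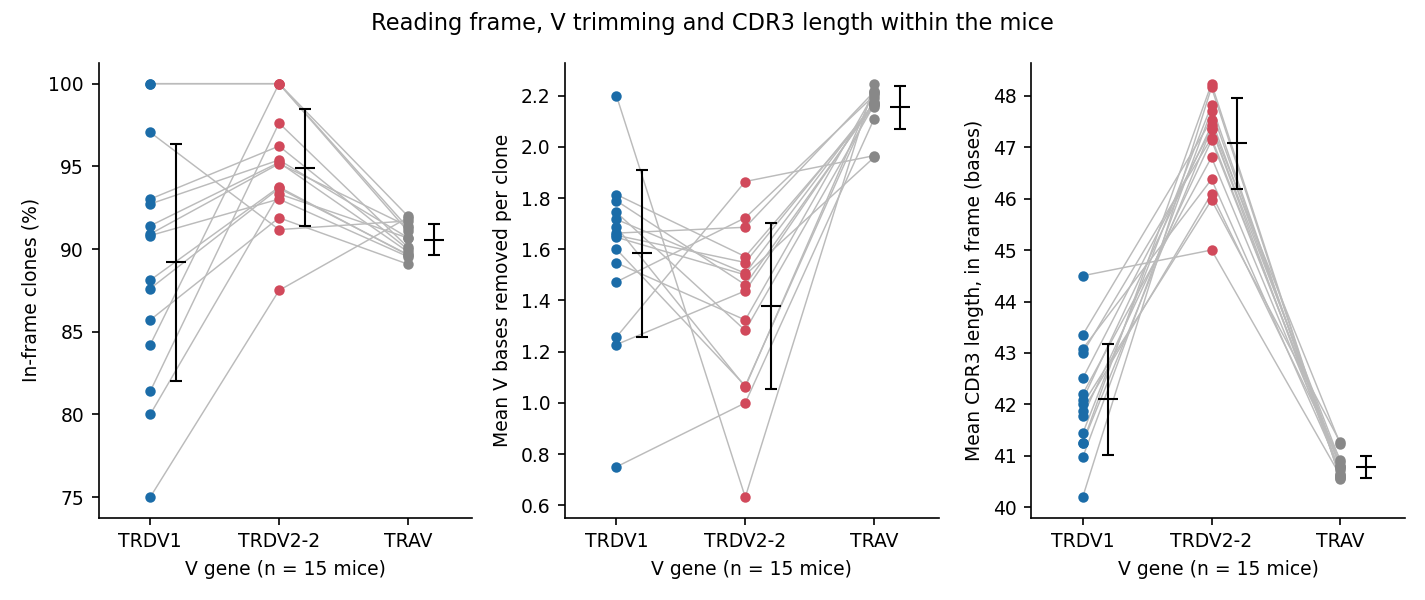
In-frame share (%), mean bases removed from the V gene and mean CDR3 length of in-frame clones (bases) in the 15 mice with at least 5 clones of both TRDV1 and TRDV2-2 (CDR3 length counts in-frame clones), with TRAV clones of the same mice, 1 point per mouse joined by grey lines, and mean ± SD in black. TRDV2-2 has the highest in-frame shares and the longest CDR3s, and the V trimming of both genes lies below that of TRAV.

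A stretch of a δ diversity gene was found in the junctions of some TRDV2-2 clones. No D gene was listed for any clone in the tables. Trdd1 (chr14:54350925-54350935) reads atggcatatca and Trdd2 (chr14:54359683-54359698) reads atcggagggatacgag in GRCm39, both on the plus strand. The inserted bases were searched on this strand for at least 10 bases in a row from either gene, a search added after the data were seen. Such a stretch occurred in 11 of 723 TRDV2-2 clones (1.52%, 95% Wilson interval 0.852% to 2.70%), and all 11 matched Trdd2, 6 of them over its 16 bases. Trdd1 has 11 bases in all, so the 10-base minimum left little room for trimmed Trdd1 to be counted. A stretch of either gene occurred in 0 of 794 TRDV1 clones, which allows a share of up to 0.378%. With at least 8 bases it was found in 1 TRDV1 clone. None of the 82 TRDV2-1 and 28 TRDV5 clones held a stretch, which allows up to 3.66% and 10.7%. Among TRAV clones, 12 of 234311 held a stretch of at least 10 bases (0.00512%, interval 0.00293% to 0.00895%). Of those 12, 8 belonged to TRAV genes whose names mark them as shared with the δ locus, 5 of them to TRAV15-2-DV6-2. In that gene 5 of 511 clones held a stretch (0.978%, interval 0.419% to 2.27%), an interval that overlapped with that of TRDV2-2. In TRAV17 to TRAV21, which include TRAV21/DV12, 5 of 7730 clones held a stretch (0.0647%, interval 0.0276% to 0.151%). The 11 TRDV2-2 clones came from 5 mice (BIT 4, BIT 5, β5i-KO 3, β5i-KO 5 and β5t-KO 3), and 9 were in frame. BIT 5 alone held 5 of the 11, and 2 of its clones, both with TRAJ2 and with 1 and 7 molecules, differed by 1 base. Without BIT 5 the share of TRDV2-2 clones was 6 of 637 (0.942%, interval 0.432% to 2.04%). Over the 17 mice the share of TRDV clones with a stretch was 0.537% ± 0.966 (SD) and that of TRAV clones 0.00588% ± 0.0106, higher for TRDV in 5 mice (permutation p = 0.063). With at least 8 bases the p was 0.0313 (6 mice higher), and with at least 6 it was 0.0442 (8 mice higher). The 3 TRDV2-2 clones with most molecules are shown with their inserted bases in capitals.

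TRDV2-2 with TRAJ12, in frame, β5i-KO 5: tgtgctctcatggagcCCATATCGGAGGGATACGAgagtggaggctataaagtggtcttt
TRDV2-2 with TRAJ49, in frame, β5t-KO 3: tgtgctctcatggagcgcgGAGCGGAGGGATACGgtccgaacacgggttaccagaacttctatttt
TRDV2-2 with TRAJ37, in frame, β5i-KO 3: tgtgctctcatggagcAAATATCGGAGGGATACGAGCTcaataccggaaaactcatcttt

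They held 34, 19 and 11 molecules.

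Few TRDV rearrangements were found in more than 1 mouse. Of 1504 distinct TRDV rearrangements, counted by V gene, J gene and CDR3, 92 (6.12%) were found in at least 2 mice and none in more than 5, against 11.6% of TRAV rearrangements, found in up to 16 mice, and 11.4% of those of TRAV17 to TRAV21. By gene, these were 63 of 640 in TRDV2-2 (9.84%), 29 of 754 in TRDV1 (3.85%) and none in TRDV2-1 or TRDV5, of which 82 and 28 were seen. By frame, 6.58% of TRDV, 12.9% of TRAV and 12.8% of TRAV17 to TRAV21 rearrangements in frame were shared. Not in frame the shares lay close together, at 1.46% (2 of 137), 1.85% and 1.54%. Shared TRDV rearrangements had 0.935 inserted bases on average and those of a single mouse 2.83. The sharing was also compared within mice, in a comparison added after the data were seen, as the share of a mouse's rearrangements that were found in any other mouse. This share was 13.8% ± 7.04 (SD, n = 17 mice) for TRDV and 28.8% ± 3.10 for TRAV rearrangements, with differences per mouse between -34.7 and 3.08 percentage points (SD 8.22) that were negative in 16 of 17 mice, all but β5t-KO 2 with 6 TRDV clones (permutation p = 3e-05, adjusted p = 6e-05 over 3 comparisons of sharing). Against TRAV17 to TRAV21, at 28.0% ± 3.52, it was also lower in 16 of 17 mice (permutation p = 4e-05, adjusted p = 6e-05). In the 15 mice with at least 5 clones of both, 18.6% ± 8.41 of TRDV2-2 and 7.65% ± 5.12 of TRDV1 rearrangements were found elsewhere, higher for TRDV2-2 in 13 mice, equal in WT 1 and lower in β5i-KO 4 (difference 10.97 ± 9.56, permutation p = 0.00023, adjusted p = 0.00023). Without BIT 5 the difference was 7.35 points (adjusted p = 0.00144). A shared rearrangement counts in each mouse that holds it, so the mice are not fully independent in these tests. The V genes also differed in abundance. TRDV1 and TRDV2-2 held 0.337% and 0.306% of all clones, TRAV17 and TRAV19 1.28% and 1.53%, and TRAV21/DV12 0.408%. How much sharing follows from the abundance of a V gene or from the depth of the libraries was not tested.

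The genotypes were compared to ask whether TRDV use differed between mice with different catalytic proteasome subunits. TRDV clones made up 0.568%, 0.536%, 0.693% and 0.502% of clones in the WT mice 1 to 4. They made up 0.731%, 0.570%, 0.659%, 0.596% and 0.668% in the β5i-KO mice 1 to 5. The values were 0.979%, 0.833%, 0.831% and 0.511% in the β5t-KO mice 1 to 4 and 0.791%, 0.833%, 0.592% and 0.711% in the BIT mice 1, 2, 4 and 5. Each of the other genotypes overlapped with WT. WT mice averaged 0.574% ± 0.0833 (SD), β5i-KO mice 0.645% ± 0.0635, β5t-KO mice 0.788% ± 0.198 and BIT mice 0.732% ± 0.106. Exact two-sided permutation tests against WT gave p = 0.198, 0.114 and 0.0571, and BIT against β5i-KO and β5t-KO gave p = 0.167 and 0.686. After adjustment over the 5 comparisons the p was 0.248 for all but the last, 0.686. With 4 mice against 4 the smallest possible p is 0.0286. The lowest β5t-KO value came from a library with 10 TRDV clones, and β5t-KO 2 had 6.

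The individual genes were tested in a model across all V genes, edgeR's quasi-likelihood test on clone counts, in which 97 V genes passed a filter of 5 clones in 4 libraries and TRDV5 did not. TRDV1 made up 0.284%, 0.223%, 0.307% and 0.210% of clones in the WT mice 1 to 4 and between 0.314% and 0.407% in the 5 β5i-KO mice. The β5i-KO range thus lay just above that of WT, and how many of the 97 V genes showed such a gap was not counted. TRDV1 ranged from 0.204% to 0.457% in β5t-KO mice and, for BIT, from 0.253% to 0.402%, and these ranges overlapped with WT. The log2 fold change of TRDV1 against WT was 0.48 ± 0.20 (SE) for β5i-KO (edgeR adjusted p = 0.245), 0.59 ± 0.26 for β5t-KO (adjusted p = 0.193) and 0.46 ± 0.20 for BIT (adjusted p = 0.178). TRDV2-2 made up between 0.258% and 0.346% of clones in WT mice. The range was 0.199% to 0.314% for β5i-KO, 0.306% to 0.483% for β5t-KO and 0.298% to 0.385% for BIT. Its log2 fold change against WT was -0.18 ± 0.19 for β5i-KO (edgeR adjusted p = 0.716), 0.48 ± 0.22 for β5t-KO (adjusted p = 0.204) and 0.14 ± 0.18 for BIT (adjusted p = 0.727). TRDV2-1, with 9 clones in all WT mice together, had estimates of 0.98 ± 0.50, 0.93 ± 0.70 and 1.06 ± 0.48, with edgeR adjusted p = 0.316, 0.460 and 0.187.

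None of the 3 TRDV genes tested passed an edgeR adjusted p of 0.05 in any of the 5 comparisons. Of all 97 V genes, 5.15% passed for β5t-KO against WT, 1.03% for BIT against WT, 5.15% for BIT against β5t-KO and 0% for β5i-KO against either WT or BIT. At an unadjusted edgeR p under 0.05, 1 of 3 TRDV genes was counted in β5i-KO against WT, beside 16.5% of all V genes. In β5t-KO against WT it was 2 of 3, beside 23.7% of V genes, and in BIT against WT 2 of 3, beside 22.7%. For BIT against β5i-KO it was 0 of 3, beside 2.06%, and for BIT against β5t-KO 0 of 3, beside 20.6%. The median log2 fold change of the 3 TRDV genes was 0.48, 0.59 and 0.46 against WT in this order, beside 0.11, 0.09 and 0.13 over all 97 genes. The 3 comparisons share the WT mice. DESeq2 called none of the 3 either. Among the TRAV genes named above for their J use, TRAV17 was higher in β5t-KO than in WT mice (log2 fold change 0.51 ± 0.15, edgeR adjusted p = 0.0471). The TRAV genes whose share of clones moved most like that of TRDV over the 17 mice were TRAV13-4-DV7 (Pearson r = 0.598), TRAV15-1-DV6-1 (r = 0.554) and TRAV11N (r = 0.535), given as a description, since the points share library and depth. TRAV13-4-DV7 was higher in β5t-KO than in WT mice, with a log2 fold change of 1.26 ± 0.20 (edgeR adjusted p = 7.84e-05).

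The reading frame and the J position of TRDV clones were compared between genotypes in the same way. The in-frame share of WT mice was 92.0% ± 7.85, that of β5i-KO mice 90.9% ± 5.67, that of β5t-KO mice 93.5% ± 4.93 and that of BIT mice 91.4% ± 1.71 (exact permutation, adjusted p = 0.889 in each of the 5 comparisons). The mean TRAJ number of TRDV clones, a comparison added after the data were seen, was 47.4, 47.0, 47.2 and 48.0 in the WT mice 1 to 4. It was 46.9, 46.1, 46.6, 43.8 and 44.2 in the β5i-KO mice 1 to 5, all below WT. The values were 49.3, 50.2, 47.5 and 52.2 in the β5t-KO mice 1 to 4 and 46.4, 47.6, 47.1 and 45.8 in the BIT mice 1, 2, 4 and 5, and both genotypes overlapped with WT. The differences from WT were -1.88 for β5i-KO (exact permutation p = 0.0317, adjusted p = 0.0952), 2.40 for β5t-KO (p = 0.0571, adjusted p = 0.0952) and -0.69 for BIT (p = 0.229, adjusted p = 0.229), none past the threshold after adjustment. TRAV clones of β5t-KO mice also used higher TRAJ numbers than those of WT mice, 29.7 ± 0.399 against 27.7 ± 0.685, without overlap (exact permutation p = 0.0286, adjusted p = 0.0714). Whether the difference between TRDV and TRAV clones itself varied among the 4 genotypes was tested for all 8 measures by permuting the labels of the mice. The lowest adjusted p was 0.239.

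**Figure D4:**
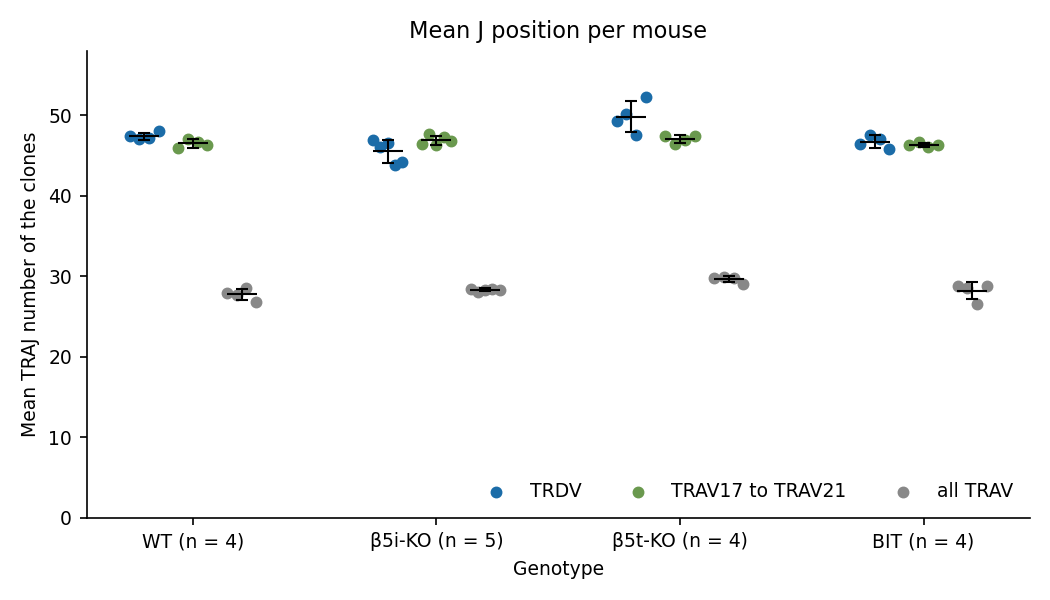
Mean TRAJ number of TRDV clones, TRAV17 to TRAV21 clones and all TRAV clones, 1 point per mouse, by genotype (WT, β5i-KO, β5t-KO, BIT), with mean ± SD in black; a high number is close to the TRDV genes. TRDV points sit at 43.8 to 52.2 beside the TRAV17 to TRAV21 points, far above all TRAV clones.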

How the data were processed

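TCRα libraries of sorted CD8+ T cells had been prepared by 5′ amplification with primers in the α constant gene and processed by the authors with MiXCR into 1 clone table per mouse. The labels name build mm10, and the MiXCR version and settings are not given in the sources used here. The deposited tables hold raw read counts and unique molecule counts per clone, not normalized, and positions of V, D and J in each CDR3. Clones, V trimming and insertions are therefore as MiXCR aligned them, and a chance match can shorten an inserted stretch. Columns of reads were used only for depth, and the TCRβ tables were not used.

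From these tables the number of clones per V gene was counted in each of 17 mice. Groups and replicate numbers were taken from the sample titles. The members and lists were chosen with earlier results of these data known. Named were all TRDV genes, the 5 J genes with the largest mean share, the 3 TRAV genes with at least 200 clones most alike in J use and the 3 most alike over mice, and per gene the CDR3s found in most mice. TRDV clones were compared with TRAV clones within each mouse with at least 5 TRDV clones by a two-sided sign-flip permutation test (100000 resamples, exact below 10 mice), genotypes by exact two-sided permutation of means, and V genes by edgeR 4.0.16 (quasi-likelihood, library size as total clones) with DESeq2 1.42.0 as alternative, in R 4.3.3, each with Benjamini-Hochberg adjustment at 0.05. Other steps used Python 3.11.15, NumPy 2.4.6, pandas 2.3.3, SciPy 1.17.1 and Matplotlib 3.10.9. The tests were tested on simulated data. Coordinates and germline sequences were read from GRCm39 with GENCODE vM39, by gene name and not by the tables, which carry no coordinates. Mice are the replicates. Over 28 pairs of libraries of the same genotype none held identical clones, and 2.36% to 11.8% of clones were shared. Replicate numbers were not used as pairs in the main tests, and whether they mark a shared batch could not be told.

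Alternatives were molecules in place of clones, clones with at least 2 molecules, clones with 1 V gene, thinning to 14772 molecules, in-frame or other clones only, other comparison genes, TRDV1 left out, other normalisations and filters, a replicate block, and leaving out each mouse. Intervals are Wilson intervals at 95%, and the floor for a count of 0 is 3 counts.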

Additional observations from a re-analysis of the deposited data

Results flagged for a closer look

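Of 52 sets of 4 or 5 mice, each a measure in a genotype, 5 held a mouse whose gap to the nearest other mouse was a large part of the range of its group by Dixon's test, where chance gives about 1 in 20. TRDV1 made up 0.407% of clones in β5i-KO 1, against 0.314% to 0.336% in the other β5i-KO mice. TRDV2-1 made up 0.0471% of clones in BIT 1, against 0.0361% to 0.0367% in the other BIT mice. TRDV5 was at 0% in WT 1, which had 16 TRDV clones, against 0.0146% to 0.0168% in the other WT mice. In β5t-KO 2, with 6 TRDV clones, 1.17 bases had been removed from the V gene on average, against 1.5 to 1.55 in the other β5t-KO mice. The CDR3 of in-frame TRDV clones was 45.7 bases long in WT 4, against 44.7 to 44.8 in the other WT mice.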

How the results depend on the processing

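The J shift, V trimming and CDR3 length of TRDV against all TRAV clones, and TRDV2-2 against TRDV1 in reading frame and CDR3 length, kept direction and side of the threshold with any 1 mouse left out and under molecule weights, the 2-molecule minimum and single-V clones where these were run. No TRDV gene was called by edgeR or DESeq2 under any alternative, and no genotype comparison of TRDV passed. The in-frame difference from TRAV was -1.745 points against TRAV16 to TRAV21 and 3.798 with TRDV1 left out. Against TRAV17 to TRAV21 the J difference was 0.5959 in frame and -1.03 not in frame, and with TRDV1 left out 17.71 not in frame (5 mice, which cannot reach 0.05).
Sharing between mice kept direction and call with any 1 mouse left out, with at least 2 molecules and in frame. V bases removed in TRDV2-1 differed from TRAV by -0.3929 to 0.05007 with a mouse left out.
Small differences changed sign. That in inserted bases passed the threshold against TRAV16 to TRAV21 and TRAV17 to TRAV21 (permutation test, adjusted p = 0.00148 and 0.0478). Inserted bases were 0.2328 higher in TRDV clones weighted by molecules, 0.05252 with at least 2 molecules, 0.006129 with 1 V gene, 0.4517 and 0.2876 against TRAV16 to TRAV21 and TRAV17 to TRAV21, and 0.03804 with TRDV1 left out, and with each mouse left out ranged from -0.056 to 0.06495. J bases removed were 0.1247, 0.01427, 0.01619 and 0.1967 in the first 4 of these, and -0.0785 to 0.007603 with a mouse left out. The log2 molecule difference was 0.03233 with at least 2 molecules, 0.001962 against TRAV16 to TRAV21 and 0.129 against TRAV17 to TRAV21.
The TRDV share of β5t-KO minus WT was -0.05397 points and BIT minus β5t-KO 0.1529 among clones not in frame. BIT minus β5i-KO was -0.001264 in molecules and -0.02124 with BIT 3 included, and BIT minus β5t-KO ranged from -0.1491 to 0.006821 with a mouse left out. The in-frame share of β5i-KO minus WT was 1.467 in molecules, 0.4627 with at least 2 molecules and 0.7011 after thinning. For BIT minus WT the latter 2 were 0.07771 and 0.5773, and for BIT minus β5i-KO the 3 were -1.828, -0.385 and -0.1238. With a mouse left out these ranged from -4.705 to 1.545, -4.272 to 1.978 and -1.189 to 2.7, β5t-KO minus WT from -2.157 to 4.093 and BIT minus β5t-KO from -3.498 to 0.05776. The causes were not tested.
The log2 change of TRDV2-2 was 0.1733 in β5i-KO against WT by molecules and -0.0002374 in BIT against WT with TMM. TRDV1 in BIT against β5i-KO was 0.02184 among in-frame clones and -0.09867 to 0.1177 with a mouse left out, and against β5t-KO -0.2271 to 0.05683. TRDV2-1 in BIT against β5t-KO was -0.0183 among in-frame clones, -1.147 by molecules and -0.3636 to 1.004 with a mouse left out, and against β5i-KO -0.09413 to 0.2871. Over 22 same-number pairs of mice the correlation of V gene shares was -0.359 to 0.318, and 2 of 17 mice correlated best with their own number. Such correlations cannot exclude a batch shared by mice of the same number. The replicate block is given once: TRDV1 in BIT against β5i-KO was 0.05185, and no call changed. BIT 3, with 1 TRDV clone, could not enter the within-mouse tests. Mice with 6 to 16 TRDV clones limit the precision of shares and of differences between genotypes.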
